A study of Mus musculus with 98 samples.

Results

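STAT5 loss was examined in mouse CD4 T cells activated for 3 days with no added cytokine, a condition called Th0. The comparison set 2 RNA-seq libraries labelled S5KO Th0 against 2 labelled WT Th0, which are 4 of the 98 samples of the series. S5KO cells carried the genotype Stat5a/b flox/flox Cd4-Cre+/-, in which a Cre recombinase under the Cd4 promoter removes the floxed Stat5a and Stat5b genes during T cell development. WT cells are labelled wild type, with no Cre named. All mice were C57BL/6. Naive CD4+CD44-CD25- cells were sorted from spleen and peripheral lymph nodes, which were pooled, and activated with antibodies against CD3 (bound to the plate) and CD28 (in solution). Neither cytokines nor blocking antibodies were added in Th0, so any interleukin-2 (IL-2) present was made by the cells or came with the medium. The same set of cultures held 16 further libraries of the same genotypes, 2 per group, in Th1 (IL-12 and anti-IL-4), Th2 (IL-4 and anti-IFNg), Th17 (TGF-b, IL-6, anti-IL-4 and anti-IFNg) and iTreg (TGF-b, anti-IL-4 and anti-IFNg) medium. They entered the same model and shared its estimate of the spread. Libraries from 4-day cultures are set beside them. Of these, 6 S5KO and 6 WT received a control retroviral vector and then human IL-2, and 2 of each genotype carried 2 control vectors. The others are 2 each of Stat5a-/- Stat5b+/-, Stat5a+/- Stat5b-/- and WT cells, whose titles read Th0 and whose treatment label reads IL-2.

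STAT5A and STAT5B are close relatives in a family of transcription factors that cytokine receptors switch on. When IL-2 binds its receptor, made of the chains IL2RA (CD25), IL2RB and IL2RG, the kinases JAK1 and JAK3 phosphorylate STAT5, which then pairs, enters the nucleus and binds DNA at a palindrome of the form TTC, any 3 bases, GAA. In activated T cells this pathway is known for raising its own receptor and its own inhibitors (the SOCS family and CISH), for survival through BCL2, for metabolic growth and for holding back the follicular helper factor BCL6.

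Depth in the 4 Th0 libraries was 19.9 and 18.8 M counts in S5KO, and 17.3 and 18.8 M counts in WT. Replicate 1 carried Y-linked transcripts and replicate 2 carried Xist in both genotypes, so the replicates came from animals of different sex, and the labels do not say how many animals were pooled. The p-values therefore measure only the spread between libraries, estimated over all 20 libraries of the 5 cultures. That spread includes any difference between replicates 1 and 2, because the main fit did not pair them. Replicate 2 also had more genes with at least 1 count, at 17772 in S5KO and 20073 in WT, than replicate 1, at 16162 in S5KO and 15323 in WT. Of the 11 CD4 T cell markers examined, all were present in every library. The B cell markers summed to 5.79 and 7.95 CPM (the count scaled to a common library size, with trimmed-mean normalisation) in S5KO, against 4.75 and 8.67 CPM in WT, with 7 of them under 1 CPM in every library, and 0 of 7 tested were called. The 15 myeloid markers summed to 5.12 and 8.2 CPM in S5KO, against 2.12 and 4.26 CPM in WT, with 12 of them under 1 CPM in every library and C1qa, S100a8 and S100a9 at 0. The 4 haemoglobin genes were at 0. They were also at 0 in all of the 4-day libraries, so these values cannot show whether red blood cells were present. The libraries are bulk, so fewer cells with a transcript and less of it per cell cannot be told apart in any value below.

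The deletion was seen in both targeted genes. Stat5a had 2.09 and 2.52 CPM in S5KO Th0 cells, against 188 and 189 CPM in WT Th0 cells, an 81.8-fold difference (log2 fold change -6.35 ± 0.33 SE, edgeR quasi-likelihood adjusted p = 2e-08). Stat5b had 1.14 and 1.36 CPM in S5KO, against 197 and 180 CPM in WT (log2 fold change -7.23 ± 0.34 SE, adjusted p = 7.1e-09). The 2 genotypes were far apart in both genes. Stat5a and Stat5b are near-identical over much of their sequence, so reads shared between them may have been dropped or split. Of the other STAT genes, Stat3, the main target of IL-6 and IL-21 receptors, rose to 389 and 510 CPM in S5KO, against 261 and 241 CPM in WT (log2 fold change 0.84 ± 0.20 SE, adjusted p = 0.015). Stat4, which relays IL-12, also rose (log2 fold change 0.87, adjusted p = 0.033), and Stat2, of the interferon pathway, fell by 0.83 on the log2 scale (adjusted p = 0.048). Of the 7 STAT genes 2 rose and 3 fell, and Stat6, of the IL-4 pathway, did not pass the test, at a log2 fold change of 0.26. The calls of Stat3 and Stat4 were lost without S5KO replicate 2 (adjusted p = 0.22 and 0.50), without WT replicate 1 (0.089 and 0.26) and without WT replicate 2 (0.14 and 0.06), and that of Stat2 without S5KO replicate 1, S5KO replicate 2 or WT replicate 1 (0.25, 0.21 and 0.45).

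Stat3 is also the neighbour of Stat5a on the chromosome. Of 8 tested genes around the Stat5 pair in RefSeq's gene order, 4 on each side, 2 were called, both on the Stat5a side. Besides Stat3 this was Ptrf, named here for its place after its value was seen, which encodes the caveolar coat protein cavin-1. It had 9.16 and 16.7 CPM in S5KO, against 1.83 and 1.80 CPM in WT (log2 fold change 2.83 ± 0.38 SE, adjusted p = 0.00028), and it passed without any 1 of the Th0 libraries (adjusted p up to 0.0078). Whether the altered locus itself plays a part in these 2 values was not tested.

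Across the 15299 genes tested, 583 were called higher in S5KO Th0 cells (3.81%) and 410 lower (2.68%) at an adjusted p below 0.05. The median log2 fold change of all genes was -0.01. Of the calls, 403 higher and 296 lower genes differed by at least 1 on the log2 scale. With the replicate number as a block, 850 were higher and 536 lower. The counts fell when a library was left out, to 371 higher and 223 lower without S5KO replicate 1, 213 and 210 without S5KO replicate 2, 261 and 269 without WT replicate 1, and 194 and 273 without WT replicate 2. For this reason named calls were also checked in those 4 fits, and a gene is said to have kept its call where it passed in all of them. Each of those fits sets 1 replicate of a genotype against both of the other, so differences between replicates enter it. The replicate block lost none of the named calls, so a call described below as lost had passed with the block.

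**Figure D1:**
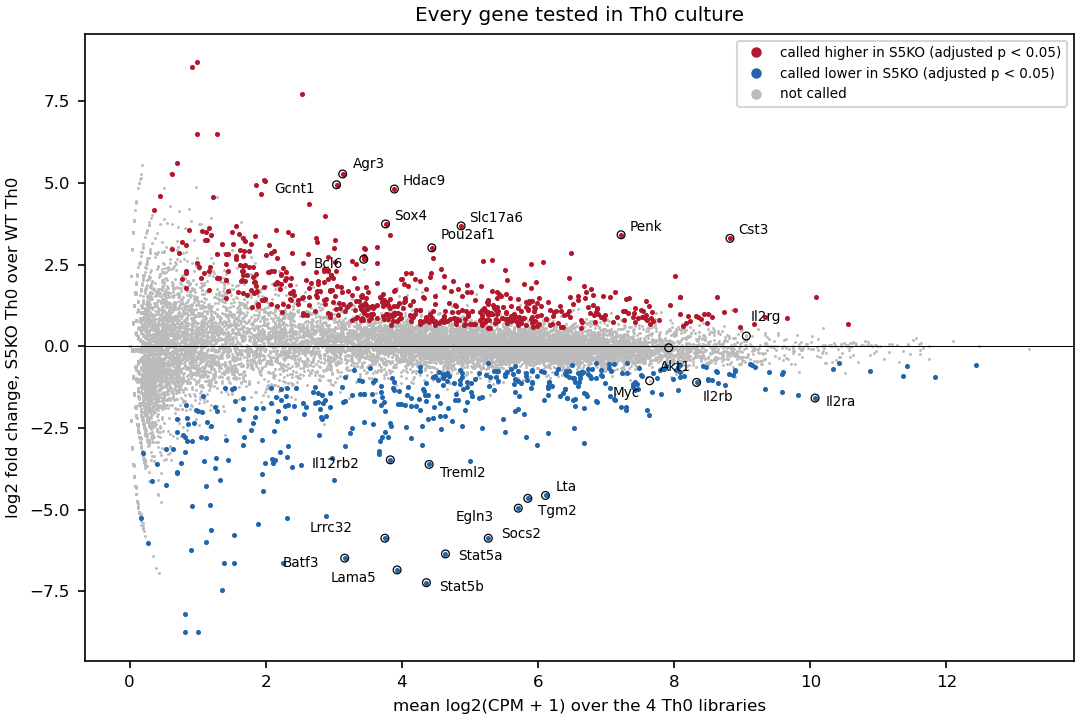
Log2 fold change of S5KO Th0 over WT Th0 (vertical axis) against the mean log2(CPM + 1) over the 4 Th0 libraries (horizontal axis), 1 point per gene tested. Red points are the 583 genes called higher in S5KO, blue points the 410 called lower and grey points those not called. Stat5b, Lama5, Batf3 and Stat5a lie lowest among the labelled genes, and Agr3, Gcnt1 and Hdac9 highest.

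Among genes of at least moderate level, the 12 that rose most were from unrelated families, and all 12 kept their calls. Agr3, a member of the protein disulfide isomerase family, had 32.8 and 43.9 CPM in S5KO, against 1.26 and 0.718 CPM in WT (log2 fold change 5.28 ± 0.51 SE, adjusted p = 1.7e-05). Gcnt1, which builds the core 2 branch of O-linked glycans, had 30.4 and 37.2 CPM in S5KO, against 0.401 and 1.74 CPM in WT, and Hdac9, a class IIa histone deacetylase, had 70.1 and 61.3 CPM in S5KO, against 2.63 and 2 CPM in WT. In all 3 genes every S5KO library stood more than 10-fold above both WT libraries, where the choice of genes already required no overlap. Cst3, which encodes the secreted protease inhibitor cystatin C, reached the highest level of the group, at 784 and 2270 CPM in S5KO, against 125 and 183 CPM in WT (log2 fold change 3.31 ± 0.40 SE, adjusted p = 0.00012). Its S5KO libraries differed from each other by more than its WT libraries did. Without S5KO replicate 2 its log2 fold change was 2.34, and that of Otx1, named below, was 2.75. Gcnt1 stood at 4.24 without WT replicate 1 and at 6.38 without WT replicate 2. Penk, the precursor of enkephalin peptides, had 358 and 648 CPM in S5KO, against 34.5 and 59.6 CPM in WT. The others were Sox4, an HMG-box transcription factor (log2 fold change 3.75), Slc17a6, a vesicular glutamate transporter (3.69, or 4.62 without WT replicate 2), the homeobox gene Otx1 (3.41), the adhesion molecule Cadm1 (3.26), Plxdc2 (3.06), Pou2af1, a coactivator of octamer-binding factors (3.02), and Nkg7, a granule membrane protein of cytotoxic cells (3.00).

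The 12 that fell most were Stat5a, Stat5b and 10 genes that include several known STAT5 targets, and all 12 kept their calls. Lama5, a laminin chain, had 0.901 and 1.21 CPM in S5KO, against 170 and 73.3 CPM in WT (log2 fold change -6.84 ± 0.56 SE, adjusted p = 3.4e-06). Batf3, an AP-1 family factor, had 0.332 and 0.805 CPM in S5KO, against 49.6 and 52.1 CPM in WT (log2 fold change -6.48 ± 0.51 SE, adjusted p = 2.5e-06). These genes were all but absent from S5KO cells. Lrrc32, which encodes GARP, the surface anchor of latent TGF-b, had 1.23 and 1.56 CPM in S5KO, against 117 and 47.6 CPM in WT. Egln3, a prolyl hydroxylase of the hypoxia pathway, had 6.4 and 11.8 CPM in S5KO, against 295 and 267 CPM in WT. Tgm2, a transglutaminase, had 7.31 and 15.4 CPM in S5KO, against 285 and 286 CPM in WT. As for the raised genes, only genes without overlap between the genotypes were chosen. Socs2 and Lta are described with the target genes below, and Treml2 (log2 fold change -3.61), the IL-12 receptor chain Il12rb2 (-3.47) and Rragd, a GTPase that links amino acids to mTORC1 (-3.29), made up the rest. Without S5KO replicate 2 the log2 fold changes of Batf3, Tgm2 and Il12rb2 were -7.23, -5.29 and -4.50, and without WT replicate 1 those of Lama5 and Lrrc32 were -6.15 and -5.12.

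The gene lists were chosen with earlier results of these data known, so their order is a description and not a test. The list of IL-2 feedback and target genes had the lowest median of the 33 lists that are not marker lists, at a log2 fold change of -1.32 against -0.01 for all genes. Of its 30 members, 20 fell and 0 rose, or 22 and 1 with the replicate block. The count of members lower was 14 without S5KO replicate 1, 17 without S5KO replicate 2, 18 without WT replicate 1 and 15 without WT replicate 2. Socs2, an inhibitor of cytokine signalling, had 2.70 and 6.79 CPM in S5KO, against 319 and 236 CPM in WT (log2 fold change -5.87 ± 0.38 SE, adjusted p = 2.1e-07). Cish, a related inhibitor of the IL-2 receptor, had 73.4 and 128 CPM in S5KO, against 380 and 386 CPM in WT (log2 fold change -1.93 ± 0.23 SE, adjusted p = 0.00012). Both fell, Socs2 58.6-fold and Cish 3.81-fold by their means, and the log2 fold change of Socs2 was -6.68 without S5KO replicate 2. Socs1 had 16.5 and 26.3 CPM in S5KO, against 134 and 159 CPM in WT (log2 fold change -2.78 ± 0.36 SE, adjusted p = 0.00023), and Socs3 fell by 2.89 on the log2 scale (adjusted p = 0.0019).

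Lta, Lif, Osm and Bcl2 of the same list fell as well. Lta, the TNF family cytokine lymphotoxin alpha, had 11.1 and 17.1 CPM in S5KO, against 254 and 410 CPM in WT (log2 fold change -4.56 ± 0.27 SE, adjusted p = 1.1e-07). Lif, an IL-6 family cytokine, had 20.6 and 22.9 CPM in S5KO, against 161 and 195 CPM in WT (log2 fold change -3.03 ± 0.38 SE, adjusted p = 0.00017), and Osm of the same family fell by 1.67 on the log2 scale. Bcl2, which blocks apoptosis, had 84.2 and 79.8 CPM in S5KO, against 322 and 271 CPM in WT (log2 fold change -1.85 ± 0.19 SE, adjusted p = 2.7e-05). The S5KO and WT libraries did not overlap in any of these genes, all of them called. The share of all genes without overlap is not given here, and genotypes can separate without a call, as in Myc below. The survival kinase Pim1 fell to 47.9 and 120 CPM in S5KO, against 342 and 298 CPM in WT (log2 fold change -1.93, or -2.74 without S5KO replicate 2). Ccnd3 and Ccnd2, the cyclins that carry cells through G1, fell by 1.40 and 0.83 on the log2 scale. Gzmb, which encodes granzyme B, had 13.4 and 15.8 CPM in S5KO, against 80.1 and 85.1 CPM in WT (log2 fold change -2.50 ± 0.51 SE, adjusted p = 0.0068).

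Myc, a growth regulator that other experiments of the series deliver by vector, had 132 and 145 CPM in S5KO, against 296 and 276 CPM in WT. Its log2 fold change was -1.05 ± 0.30 SE with an adjusted p of 0.052, just outside the threshold, and with the replicate number as a block it was -1.04 with an adjusted p of 0.034, inside it. Akt1, a kinase of the growth pathway downstream of PI3K, had 232 and 245 CPM in S5KO, against 228 and 262 CPM in WT, which overlap (log2 fold change -0.04 ± 0.14 SE, adjusted p = 0.93). Members of the list that did not pass included Bcl2l1 (log2 fold change -0.32), Mcl1 (0.58), Tnfrsf4 (-0.15), Tnfrsf18 (-0.06) and Capg (0.13). Of the calls in the list, Ccnd2, Tnfrsf9 and Nfil3 were lost without S5KO replicate 1 or WT replicate 2 (adjusted p up to 0.15), Gzmb without S5KO replicate 1 or S5KO replicate 2 (0.084 and 0.075), and Pim3 and Slc2a1 whichever Th0 library was left out (0.072 to 0.24).

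Promoter windows are shown for the 4 named genes that hold the STAT palindrome most often or changed most, because both the feedback inhibitor Cish and 3 of the 12 most lowered genes carry it in the window. The windows are RefSeq's, on GRCm38.p6, and run 5′ to 3′ on the gene's strand from 250 bases before the annotated start to 50 bases from it on. Capitals mark each match to TTCNNNGAA, which reads the same on both strands. Lta lies at chr17:35205302-35205601 on the minus strand, Cish at chr9:107296409-107296708 on the plus strand, Batf3 at chr1:191098164-191098463 on the plus strand and Il12rb2 at chr6:67376139-67376438 on the minus strand.

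Lta promoter window: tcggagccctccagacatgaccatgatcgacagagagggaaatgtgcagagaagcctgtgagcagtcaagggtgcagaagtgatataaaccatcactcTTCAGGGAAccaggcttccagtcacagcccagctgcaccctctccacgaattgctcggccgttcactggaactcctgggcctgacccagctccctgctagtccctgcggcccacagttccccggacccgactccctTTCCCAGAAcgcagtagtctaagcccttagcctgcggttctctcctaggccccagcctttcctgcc

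Cish promoter window: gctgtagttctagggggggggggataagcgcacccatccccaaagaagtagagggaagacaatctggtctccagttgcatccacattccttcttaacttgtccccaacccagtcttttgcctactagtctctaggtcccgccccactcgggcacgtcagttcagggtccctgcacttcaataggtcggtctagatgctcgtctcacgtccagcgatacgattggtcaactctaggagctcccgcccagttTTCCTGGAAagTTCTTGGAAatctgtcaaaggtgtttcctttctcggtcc

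Batf3 promoter window: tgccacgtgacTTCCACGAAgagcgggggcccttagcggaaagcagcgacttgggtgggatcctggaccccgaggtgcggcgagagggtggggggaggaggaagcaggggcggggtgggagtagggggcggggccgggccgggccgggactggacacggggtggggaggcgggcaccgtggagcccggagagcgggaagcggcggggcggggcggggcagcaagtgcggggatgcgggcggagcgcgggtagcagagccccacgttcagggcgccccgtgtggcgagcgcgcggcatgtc

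Il12rb2 promoter window: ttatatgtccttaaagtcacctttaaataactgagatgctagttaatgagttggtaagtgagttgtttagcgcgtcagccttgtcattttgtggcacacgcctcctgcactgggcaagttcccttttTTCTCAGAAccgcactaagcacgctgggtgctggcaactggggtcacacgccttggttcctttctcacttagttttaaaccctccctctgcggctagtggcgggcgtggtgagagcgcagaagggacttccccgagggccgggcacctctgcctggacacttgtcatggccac

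In Lta the matches begin at -152 and -16 from the start site, and in Cish at 0 and 11, where 0 is the first base of the annotated transcript. Batf3 has its match at -239 and Il12rb2 at -123. Among the 12 most lowered genes, 8 had a window and 3 of those held the motif. Among the 12 most raised genes, 8 had a window and 1 (Nkg7) held it. Of the feedback and target list, 24 members had a window and 7 held the motif, among them Cish, Socs3, Gzmb, Lta and Tnfrsf9, which fell, and Tnfrsf18 and Tnfrsf1b, which did not pass the test (log2 fold change of Tnfrsf1b 0.79, adjusted p = 0.054, and 0.80 and 0.031 with the replicate block). Of all 27025 genes with a window, 9.55% held it. Lif and Bcl2 had a window and no match in it.

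The receptor and kinase genes moved in both directions, 4 higher and 7 lower of 28, with a median of 0.10. With the replicate block 7 were higher and 8 lower. Higher and lower members numbered 3 and 5 without S5KO replicate 1, 1 and 4 without S5KO replicate 2, 2 and 6 without WT replicate 1 and 0 and 5 without WT replicate 2. Il2ra, the inducible chain that gives the IL-2 receptor its high affinity, had 498 and 757 CPM in S5KO, against 2049 and 1700 CPM in WT (log2 fold change -1.58 ± 0.26 SE, adjusted p = 0.0017). Il2rb had 216 and 221 CPM in S5KO, against 472 and 465 CPM in WT (log2 fold change -1.10 ± 0.20 SE, adjusted p = 0.0036). Il2rg, the chain shared with the receptors of IL-4, IL-7, IL-9, IL-15 and IL-21, had 515 and 697 CPM in S5KO, against 390 and 583 CPM in WT, which overlap (log2 fold change 0.32 ± 0.23 SE, adjusted p = 0.55). So Il2ra and Il2rb stood lower in S5KO cells and the shared chain was not called.

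Receptors for other cytokines followed no common direction. Il10ra, the ligand-binding chain of the IL-10 receptor, had 1.23 and 1.71 CPM in S5KO, against 25.4 and 24.4 CPM in WT (log2 fold change -4.08 ± 0.33 SE, adjusted p = 2.8e-06). Il12rb2 had 1.95 and 6.04 CPM in S5KO, against 38.3 and 49.8 CPM in WT, and its partner Il12rb1 fell by 1.20 on the log2 scale (adjusted p = 0.018). Il4ra (log2 fold change -1.31, adjusted p = 0.01) and Il6ra (-1.39, adjusted p = 0.0035) fell too. Higher in S5KO were Il9r, with 15.4 and 22 CPM in S5KO against 2.86 and 1.80 CPM in WT, Jak2, with 664 and 736 CPM in S5KO against 352 and 297 CPM in WT (log2 fold change 1.11 ± 0.20 SE, adjusted p = 0.0027), Ifngr1 (0.87) and Tgfbr2 (0.90). Jak1 and Jak3, the kinases of the IL-2 receptor, did not pass, at log2 fold changes of 0.31 and -0.15. Il2ra, Il2rb, Il10ra and Il12rb2 kept their calls. Jak2 lost its call without WT replicate 2 (adjusted p = 0.059), Il9r without S5KO replicate 2 or WT replicate 2 (0.063 and 0.073), Il6ra without S5KO replicate 2 or WT replicate 1 (0.064 and 0.059), Il4ra and Il12rb1 without S5KO replicate 1, S5KO replicate 2 or WT replicate 2 (0.055 to 0.18), Ifngr1 without any but S5KO replicate 1 (0.15 to 0.40) and Tgfbr2 in all 4 fits (0.087 to 0.33).

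**Figure D2:**
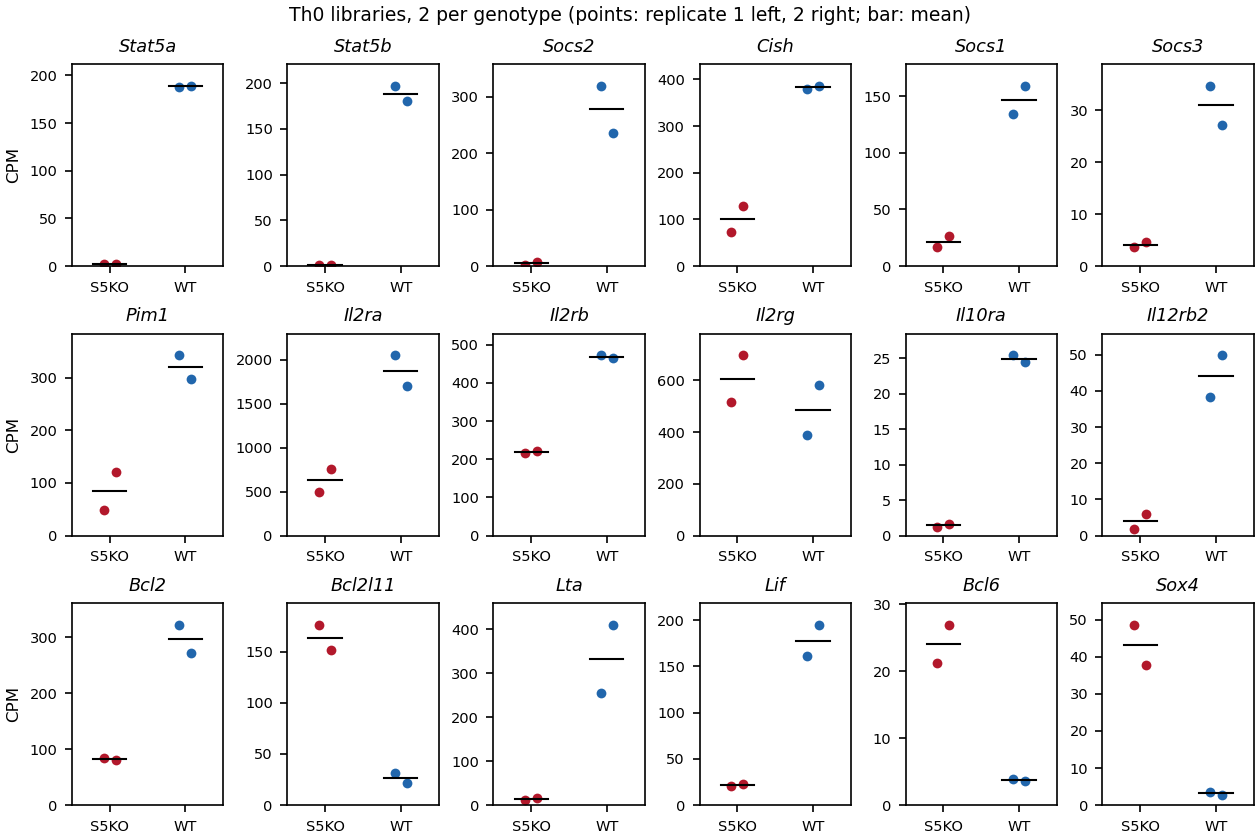
CPM of 18 genes in the 4 Th0 libraries, S5KO left and WT right, with linear axes from 0. Points are libraries (replicate 1 left, replicate 2 right) and bars are the means of 2. The genotypes overlap in Il2rg, the only gene shown that was not called, and in no other panel.

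Among helper cytokines, 6 of 23 fell and 1 rose, with a median of -0.87, and many members were near the detection floor, 7 of them under 1 CPM in all 4 libraries. Leaving out a library gave 0 and 4 without S5KO replicate 1, 0 and 5 without S5KO replicate 2, 0 and 6 without WT replicate 1 and 0 and 4 without WT replicate 2, higher and lower. Besides Lta, Lif and Osm, Tnf had 13.4 and 8.15 CPM in S5KO, against 45.7 and 48.8 CPM in WT (log2 fold change -2.13 ± 0.36 SE, adjusted p = 0.0018), and the growth factor Il3 had 3.75 and 8.25 CPM in S5KO, against 20 and 44.5 CPM in WT. The type 2 cytokine Il13 stood at 0.617 and 0.956 CPM in S5KO, against 3.95 and 14.9 CPM in WT (adjusted p = 0.011). Csf1, the macrophage growth factor, was the member that rose, with 14.4 and 22.4 CPM in S5KO against 2.98 and 5.64 CPM in WT (adjusted p = 0.038). Il2 itself had 23.3 and 29.2 CPM in S5KO, against 30.5 and 42.4 CPM in WT, and did not pass (log2 fold change -0.47 ± 0.54 SE, adjusted p = 0.73). Ifng (log2 fold change 0.24), Il4 (-3.10) and Il21 (0.36) did not pass either. Of the 9 chemokines tested, Ccl3 and Ccl4, which attract T cells and macrophages, fell (log2 fold changes -1.77 and -1.35), and Xcl1 rose at a level under 1 CPM (median -0.13), with higher and lower counts of 1 and 0 without S5KO replicate 1, 0 and 0 without S5KO replicate 2, 0 and 2 without WT replicate 1 and 0 and 0 without WT replicate 2. Il3 lost its call without S5KO replicate 1 or WT replicate 2 (adjusted p = 0.086 and 0.076), Csf1 in all 4 fits (0.072 to 0.31), Xcl1 without any but S5KO replicate 1 (up to 0.24), and Il13, Ccl3 and Ccl4 without any but WT replicate 1 (0.092 to 0.46). Without WT replicate 2 the log2 fold changes of Il3, Il13, Ccl3, Ccl4 and Xcl1 were -1.74, -2.32, -0.98, -0.75 and 6.44. They were -3.12 for Il3 and 3.49 for Xcl1 without S5KO replicate 2, and -4.28 for Il13 and 3.37 for Xcl1 without WT replicate 1.

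Lineage and fate factors leaned upward, with 8 of 36 higher, 4 lower and a median of 0.49, with higher and lower counts of 7 and 2 without S5KO replicate 1, 5 and 3 without S5KO replicate 2, 6 and 3 without WT replicate 1 and 3 and 2 without WT replicate 2. Bcl6, the repressor that directs follicular helper cells and that STAT5 is known to restrain, had 21.2 and 26.9 CPM in S5KO, against 3.89 and 3.64 CPM in WT, a 6.37-fold difference (log2 fold change 2.67 ± 0.30 SE, adjusted p = 7.2e-05). Sox4 had 48.6 and 37.8 CPM in S5KO, against 3.61 and 2.82 CPM in WT (log2 fold change 3.75 ± 0.26 SE, adjusted p = 5e-07). Both genes were low in each WT library and at least 5-fold higher in each S5KO library. Eomes, a T-box factor of cytotoxic and memory cells, had 33.2 and 38.4 CPM in S5KO, against 7.21 and 7.70 CPM in WT (log2 fold change 2.26 ± 0.42 SE, adjusted p = 0.004). Myb, Rora, Bach2, Satb1 and Ikzf2 were also called higher. Lower were Irf8, with 40.5 and 42.8 CPM in S5KO against 116 and 118 CPM in WT (log2 fold change -1.49 ± 0.17 SE, adjusted p = 9.1e-05), Ikzf4 (-2.21), Nfil3 (-1.09) and Id2 (-0.91). Foxp3 of regulatory T cells had 8.59 and 12.4 CPM in S5KO, against 23.1 and 11.6 CPM in WT, which overlap (log2 fold change -0.72 ± 0.33 SE, adjusted p = 0.26), and Tbx21 (-0.31) and Gata3 (0.52) did not pass. Bcl6, Sox4, Irf8 and Ikzf4 kept their calls. Eomes lost its call without WT replicate 1 (adjusted p = 0.063), Myb without WT replicate 2 (0.055), Rora and Bach2 without S5KO replicate 2 or WT replicate 2 (0.054 to 0.09), Ikzf2 without S5KO replicate 1 or WT replicate 2 (0.13 each; its log2 fold change of 2.06 was 3.30 without WT replicate 1 and 1.38 without WT replicate 2), Satb1 without any but S5KO replicate 1 (0.11 to 0.33) and Id2 in all 4 fits (0.05 to 0.21).

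Of 18 Treg genes, 3 rose and 6 fell (median -0.51), with higher and lower counts of 2 and 5 without S5KO replicate 1, 1 and 3 without S5KO replicate 2, 2 and 3 without WT replicate 1 and 0 and 5 without WT replicate 2. Beside Lrrc32 and Ikzf4, Gpr83, an orphan receptor, fell to 0.949 and 0.905 CPM in S5KO, against 16.0 and 4.26 CPM in WT (adjusted p = 0.0037), and the ectonucleotidase Entpd1 fell at levels under 2 CPM. The Ikaros family members of the list went opposite ways, since Ikzf2 (Helios) had 47.9 and 29.0 CPM in S5KO, against 14.8 and 3.80 CPM in WT. Of 22 naive and follicular helper genes, 5 rose and 3 fell (median 0.41), with higher and lower counts of 4 and 3 without S5KO replicate 1, 3 and 0 without S5KO replicate 2, 3 and 2 without WT replicate 1 and 4 and 3 without WT replicate 2. Pdcd1, which encodes the inhibitory receptor PD-1, had 264 and 285 CPM in S5KO, against 72.2 and 123 CPM in WT (log2 fold change 1.49 ± 0.26 SE, adjusted p = 0.0024). Ccr7, the receptor that brings T cells to lymph nodes, had 1417 and 2325 CPM in S5KO, against 550 and 775 CPM in WT (adjusted p = 0.0057), and Pou2af1 had 74.2 and 42.8 CPM in S5KO, against 6.81 and 7.59 CPM in WT. Sh2d1a, the adaptor SAP that follicular helper cells need, went down, with 31.7 and 21.2 CPM in S5KO against 97.9 and 100 CPM in WT (adjusted p = 0.0042), so Bcl6 and Pdcd1 rose while another follicular helper gene fell. Gpr83 lost its call without S5KO replicate 2 or WT replicate 1 (adjusted p = 0.057 and 0.066; its log2 fold change of -3.44 was -2.23 without WT replicate 1 and -4.10 without WT replicate 2), Ccr7 likewise (0.094 and 0.084), Sh2d1a without S5KO replicate 2 (0.058) and Entpd1 in all 4 fits (up to 0.28).

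Interferon-stimulated genes were lower where they were called, 7 of 30 and 0 higher, with a median of -0.69. The lower count was 3 without S5KO replicate 1, 3 without S5KO replicate 2, 6 without WT replicate 1 and 5 without WT replicate 2. The ubiquitin-like modifier Isg15 had 8.54 and 15.5 CPM in S5KO, against 41.8 and 75.3 CPM in WT (log2 fold change -2.28 ± 0.34 SE, adjusted p = 0.00083), and Usp18, the protease that removes it, had 8.07 and 8.35 CPM in S5KO, against 28.6 and 59.7 CPM in WT (-2.43 ± 0.33 SE, adjusted p = 0.00029). Both kept their calls, Usp18 at -1.79 without WT replicate 2. Oas3, Isg20 and Bst2 fell by 1.59, 0.99 and 0.97 on the log2 scale, but Isg20 and Bst2 lost their calls without any but WT replicate 1 (adjusted p = 0.057 to 0.45) and Oas3 without S5KO replicate 1 or S5KO replicate 2 (0.12 and 0.057). Of 16 interferon-induced GTPases tested, which defend against intracellular microbes, 3 rose and 5 fell (median -0.16), with higher and lower counts of 1 and 2 without S5KO replicate 1, 0 and 2 without S5KO replicate 2, 0 and 4 without WT replicate 1 and 2 and 2 without WT replicate 2. Ifi47 had 37.2 and 34.6 CPM in S5KO, against 80.7 and 75.2 CPM in WT, and kept its call, while Gbp5 fell and Gbp8 and Gbp10 rose, at log2 fold changes of -1.16, 1.27 and 2.02. Some Gbp genes are close copies whose reads may be split between them. Each of these 3 lost its call in at least 2 of the 4 fits, with Gbp10 at 2.96 without WT replicate 2. In the Schlafen family, a group of growth regulators, Slfn1 fell (log2 fold change -1.10, adjusted p = 0.0058) and Slfn5 rose (1.08, adjusted p = 0.0054) among 8 members (median -0.43). Both lost their calls without S5KO replicate 2 (0.053 and 0.094), Slfn1 also without WT replicate 2 and Slfn5 also without WT replicate 1.

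Of 22 glycolysis genes, 11 fell and 0 rose, with a median of -0.75, and 20 of the 22 fold changes were negative. Pkm, the pyruvate kinase of the last step, had 2770 and 2482 CPM in S5KO, against 4727 and 5371 CPM in WT (log2 fold change -0.94 ± 0.16 SE, adjusted p = 0.0017). Eno1, the enolase before it, fell by 0.89 on the log2 scale (± 0.15 SE, adjusted p = 0.0019). Pfkp, a phosphofructokinase, had 183 and 207 CPM in S5KO, against 351 and 395 CPM in WT (adjusted p = 0.0049). Hk2, a hexokinase, had 71.2 and 87.2 CPM in S5KO, against 233 and 256 CPM in WT (log2 fold change -1.63 ± 0.42 SE, adjusted p = 0.029), and the glucose transporter Slc2a1 had 100 and 118 CPM in S5KO, against 233 and 281 CPM in WT (-1.24 ± 0.34 SE, adjusted p = 0.041). The genotypes did not overlap in these 5 genes, which were all called. The count of members called lower was 6 without S5KO replicate 1, 3 without S5KO replicate 2, 9 without WT replicate 1 and 3 without WT replicate 2. Pkm and Eno1 kept their calls, Pfkp lost its call without WT replicate 2 (adjusted p = 0.066), and Hk2 and Slc2a1 lost theirs in all 4 fits (0.096 to 0.24).

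Hypoxia-associated genes fell in 7 of 20 cases and rose in 1, with a median of -0.56. After Egln3, the mitophagy receptor Bnip3 had 49.4 and 48.0 CPM in S5KO, against 164 and 180 CPM in WT (log2 fold change -1.82 ± 0.22 SE, adjusted p = 0.00014), and kept its call. Vegfa, the endothelial growth factor, and P4ha2, a collagen prolyl hydroxylase, fell by 1.58 and 2.16 on the log2 scale, and P4ha2 stood at -2.89 without S5KO replicate 2. Without 1 library, 3 to 6 members were lower and none higher, fewest without S5KO replicate 1, where Vegfa and P4ha2 missed the threshold (adjusted p = 0.077 and 0.068), as Vegfa also did without WT replicate 1 (0.057). The pyruvate carboxylase Pcx, which feeds the TCA cycle from pyruvate, had 20 and 15.7 CPM in S5KO, against 114 and 106 CPM in WT (log2 fold change -2.63 ± 0.25 SE, adjusted p = 1.5e-05). It stood apart in its list, where 3 of 20 TCA cycle genes fell and the median was -0.04 (2 without S5KO replicate 1, 1 without S5KO replicate 2, 3 without WT replicate 1 and 1 without WT replicate 2 lower), and Pcx kept its call. The respiratory chain did not follow, with 0 of 37 genes called and a median of -0.02.

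In lipid synthesis, 5 of 24 cholesterol genes and 6 of 17 fatty acid genes fell and 0 rose, with medians of -0.56 and -0.76. Scd1, which desaturates stearate, had 60.2 and 23.9 CPM in S5KO, against 333 and 140 CPM in WT (log2 fold change -2.49 ± 0.44 SE, adjusted p = 0.0026), and Scd2 had 640 and 344 CPM in S5KO, against 1585 and 968 CPM in WT. Fdps, which makes farnesyl pyrophosphate, had 206 and 134 CPM in S5KO, against 493 and 362 CPM in WT (log2 fold change -1.33 ± 0.27 SE, adjusted p = 0.0069). In all 3 genes replicate 1 exceeded replicate 2 in both genotypes, so the replicates shared a difference of their own. With the replicate block 10 cholesterol genes were lower and 0 higher. The counts of cholesterol genes lower were 7 without S5KO replicate 1, 0 without S5KO replicate 2, 1 without WT replicate 1 and 5 without WT replicate 2, and of fatty acid genes 6, 1, 2 and 4 in the same 4 fits. Scd1 kept its call, at -3.31 without S5KO replicate 1 and -1.77 without WT replicate 1, Scd2 lost it without S5KO replicate 2 or WT replicate 1 (adjusted p = 0.11 and 0.10), and Fdps without S5KO replicate 2 (0.074).

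The lists on growth and division moved less, although most of their members had a negative sign. Of 38 ribosome biogenesis genes 2 fell (median -0.35), of 36 DNA replication genes 3 fell (median -0.33), and of 38 mitosis genes 0 were called (median -0.35). With the replicate block 6 DNA replication genes were lower, and the count was 2 without S5KO replicate 1, 0 without S5KO replicate 2, 2 without WT replicate 1 and 0 without WT replicate 2. Ribosome biogenesis genes called lower numbered 1 without S5KO replicate 1, 1 without S5KO replicate 2, 2 without WT replicate 1 and 0 without WT replicate 2. The mitosis genes summed to 6173 and 3124 CPM in S5KO, against 6692 and 5012 CPM in WT, with the difference between S5KO replicates larger than that between genotypes in replicate 1. Single calls stood in the serine and one-carbon list, where 1 of 14 fell (Ahcy, which clears S-adenosylhomocysteine, log2 fold change -0.88, adjusted p = 0.0055), and in nucleotide synthesis, where 1 of 21 fell (Impdh1, of guanine nucleotide synthesis, -1.06, adjusted p = 0.0017). With the replicate block 2 serine and one-carbon genes were lower. Of 18 ER chaperone genes 2 fell, led by Xbp1, the factor of the unfolded protein response, with 68.9 and 89.1 CPM in S5KO against 255 and 223 CPM in WT (log2 fold change -1.60 ± 0.21 SE, adjusted p = 0.00029). Chaperone genes called lower numbered 1 without S5KO replicate 1, 2 without S5KO replicate 2, 3 without WT replicate 1 and 1 without WT replicate 2. The medians of the serine, nucleotide and ER chaperone lists were -0.34, -0.30 and -0.26. Ahcy, Impdh1 and Xbp1 kept their calls. Of 18 ATF4 response genes 1 rose (Sesn2, a leucine sensor that restrains mTORC1, log2 fold change 1.01, median of the list -0.14, call lost without any but S5KO replicate 1, adjusted p up to 0.34), of 14 amino acid transporters 0 were called (median 0.13; 1 higher with the replicate block), and of 19 G1 regulators 2 fell, the cyclins Ccnd2 and Ccnd3 named above (median -0.20; 1 higher with the replicate block, and 1 or 2 lower without any 1 Th0 library).

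The BCL2 family, which sets the threshold for apoptosis, had the highest median of all lists that are not marker lists, at 0.64, with 5 of 18 higher and 1 lower. Bcl2l11, which encodes the death-promoting BIM, had 176 and 151 CPM in S5KO, against 31.8 and 22.1 CPM in WT (log2 fold change 2.60 ± 0.48 SE, adjusted p = 0.0035). Bcl2, which binds BIM, fell as given above, so the pair changed in opposite directions. Further death-promoting members rose, Bbc3 (PUMA) with 52.8 and 70.3 CPM in S5KO against 23.2 and 22.5 CPM in WT, and Bmf with 22.6 and 15.0 CPM in S5KO against 8.07 and 3.75 CPM in WT. The count of members higher was 3 without S5KO replicate 1, 3 without S5KO replicate 2, 2 without WT replicate 1 and 1 without WT replicate 2. Bcl2l11 and Bcl2 kept their calls, Bbc3 lost its call without any but S5KO replicate 1 (adjusted p up to 0.14) and Bmf without S5KO replicate 1 or WT replicate 2 (up to 0.18; its log2 fold change of 1.67 was 2.29 without WT replicate 1).

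Surface molecules that steer T cells rose more often than they fell. Of 28 chemokine receptor and adhesion genes 9 rose and 1 fell (median 0.53), and of 25 costimulatory and coinhibitory receptors 7 rose and 3 fell (median 0.46). Cxcr6, a receptor that retains T cells in tissue, had 7.59 and 15.1 CPM in S5KO, against 0.343 and 0.308 CPM in WT (log2 fold change 5.09 ± 0.49 SE, adjusted p = 1.5e-05). Ccr8 had 76.0 and 140 CPM in S5KO, against 25.6 and 31.7 CPM in WT (1.92 ± 0.26 SE, adjusted p = 0.00029). The inhibitory NK receptor gene Klrc1 had 13.6 and 32.8 CPM in S5KO, against 1.09 and 1.80 CPM in WT, and Cd96 had 106 and 138 CPM in S5KO, against 29.6 and 32.9 CPM in WT. All 4 kept their calls, with no overlap between genotypes. The log2 fold change of Klrc1 was 4.00, or 3.22 without S5KO replicate 2. For chemokine receptors the counts higher and lower were 5 and 1 without S5KO replicate 1, 4 and 1 without S5KO replicate 2, 3 and 1 without WT replicate 1 and 6 and 1 without WT replicate 2. For costimulatory genes they were 5 and 2 without S5KO replicate 1, 5 and 0 without S5KO replicate 2, 4 and 3 without WT replicate 1 and 4 and 1 without WT replicate 2. In the TNF superfamily 3 of 27 rose and 3 fell (median -0.06), or 7 and 3 with the replicate block, with higher and lower counts of 3 and 2 without S5KO replicate 1, 1 and 3 without S5KO replicate 2, 3 and 3 without WT replicate 1 and 2 and 2 without WT replicate 2. Tnfsf4, the OX40 ligand, had 79.5 and 124 CPM in S5KO, against 10.2 and 22.2 CPM in WT (log2 fold change 2.64 ± 0.35 SE, adjusted p = 0.00029), and Cd27 had 81.1 and 117 CPM in S5KO, against 41.3 and 37.2 CPM in WT. Tnfsf4 kept its call, at 3.31 without WT replicate 2, and Cd27 lost it without S5KO replicate 2 or WT replicate 2 (adjusted p up to 0.09).

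In the T cell receptor list, 6 of 25 rose and 3 fell (median 0.43). Themis, a regulator of T cell receptor signalling, had 35.8 and 18.8 CPM in S5KO, against 138 and 91.4 CPM in WT (log2 fold change -2.07 ± 0.32 SE, adjusted p = 0.0011). The adhesion receptor Cd2 had 256 and 316 CPM in S5KO, against 618 and 671 CPM in WT (adjusted p = 0.0014). Both kept their calls. Zap70 and Ptpn22 rose by 0.90 and 0.91 on the log2 scale but lost their calls without any library but S5KO replicate 1 (adjusted p up to 0.24), and the count of members higher was 4, 1, 1 and 0 without S5KO replicate 1, S5KO replicate 2, WT replicate 1 and WT replicate 2. Of 23 immediate early genes, which antigen receptor signals induce within minutes, 2 rose and 2 fell (median 0.25), with higher and lower counts of 1 and 0 without S5KO replicate 1, 1 and 1 without S5KO replicate 2, 1 and 1 without WT replicate 1 and 2 and 1 without WT replicate 2. Spry2, an inhibitor of the ERK pathway, had 11.8 and 16.6 CPM in S5KO, against 2.86 and 3.28 CPM in WT (log2 fold change 2.20 ± 0.32 SE, adjusted p = 0.00052), and kept its call.

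Of 11 granule genes tested, 2 rose and 1 fell (median 0.29), with higher and lower counts of 2 and 0 without S5KO replicate 1, 1 and 0 without S5KO replicate 2, 1 and 1 without WT replicate 1 and 2 and 1 without WT replicate 2. Nkg7 had 19.9 and 34.8 CPM in S5KO, against 3.15 and 3.64 CPM in WT (log2 fold change 3.00 ± 0.32 SE, adjusted p = 4.2e-05), while Gzmb fell. Nkg7, Eomes, Klrd1 and Klrk1 are also on the list of CD8 T and NK cell markers, of which 4 of 8 tested rose and 0 fell (2 or 3 higher without any 1 Th0 library). That list summed to 80.0 CPM and 99.0 CPM in S5KO, against 25.6 and 25.0 CPM in WT. Its member Cd8a had 0.901 and 0.704 CPM in S5KO, against 0.744 and 1.80 CPM in WT, and Ncr1 of NK cells was under 1 CPM in every library. Cd8b1, the other CD8 gene of the list, is part of the sum and its values are not given here. The part of any such cells in the values of Eomes, Nkg7 and the Klr genes was not tested, and reads shared by any closely related Klr genes may be split. MHC class II genes went both ways. Cd74, the invariant chain, had 133 and 195 CPM in S5KO, against 48.0 and 63.4 CPM in WT (adjusted p = 0.011), and H2-Eb1 had 27.8 and 33.1 CPM in S5KO, against 7.55 and 6.87 CPM in WT (adjusted p = 0.0028). H2-Ab1 had 21.1 and 16.4 CPM in S5KO, against 55.2 and 51.8 CPM in WT (adjusted p = 0.0033), and the whole list of 12 antigen-presenting cell markers, of which 2 rose and 3 fell, Batf3 among them, summed to 200 and 263 CPM in S5KO, against 184 and 196 CPM in WT. Of 6 myeloid markers tested 1 rose, Cd68, at 2.56 and 4.88 CPM in S5KO against 1.14 and 1.23 CPM in WT. Cd68 lost its call without S5KO replicate 2, WT replicate 1 or WT replicate 2 (adjusted p = 0.29, 0.14 and 0.12). Of 11 CD4 T cell markers 4 rose and 2 fell (Thy1 and Cd2), with higher and lower counts of 2 and 2 without S5KO replicate 1, 1 and 2 without S5KO replicate 2, 1 and 2 without WT replicate 1 and 0 and 2 without WT replicate 2, and their sum was 4608 and 5115 CPM in S5KO, against 4282 and 4934 CPM in WT. H2-Eb1, H2-Ab1 and Klrd1 kept their calls, Cd74 lost its call without S5KO replicate 2 or WT replicate 1 (0.13 each) and Klrk1 in all 4 fits (up to 0.27).

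**Figure D3:**
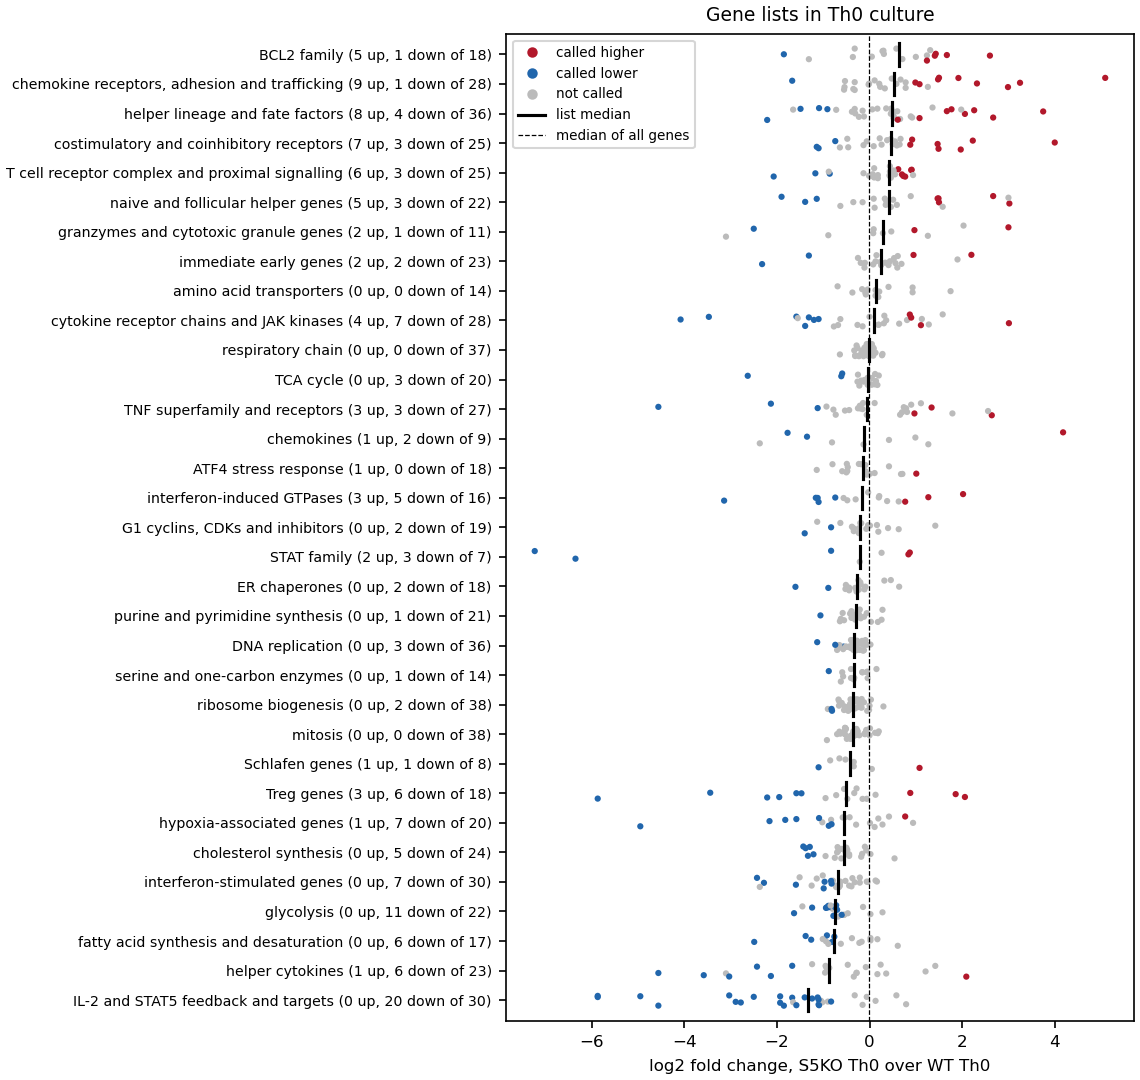
Log2 fold change of S5KO Th0 over WT Th0 for the members of 33 gene lists, sorted by list median, 1 point per gene tested. Red and blue points are genes called higher and lower in S5KO, the thick bars are list medians and the dashed line is the median of all genes (-0.01). The feedback and target list lies lowest, at -1.32, and the BCL2 family highest, at 0.64. The lists were chosen with earlier results of these data known.

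The same genotype contrast in the 4 polarised cultures gave other numbers of calls, 11.7% of genes in Th1, 11.5% in Th2, 4.88% in Th17 and 22.6% in iTreg, in either direction. Of the genes called higher in Th0, 26.8%, 30.9%, 16.5% and 61.6% were also called higher in Th1, Th2, Th17 and iTreg. For those called lower the shares were 22.9%, 33.9%, 35.4% and 70.5%. These stand against the unlike shares of all genes called, of which that in iTreg was the largest. Whether the response to STAT5 loss in Th0 differed from the mean response of the other 4 cultures was tested as 1 contrast, which called 79 genes more positive in Th0 (0.516%) and 79 more negative (0.516%). With the replicate block the counts were 168 and 138. They were 37 and 21 without S5KO replicate 1, 18 and 21 without S5KO replicate 2, 51 and 48 without WT replicate 1, and 13 and 37 without WT replicate 2. Of the 31 genes named in the text and called here, 8 kept the call in all 4 fits, namely Socs2, Il10ra, Nek6, Mxd4, Adssl1, Id2, Ifi47 and Slfn1.

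Several feedback and target genes were lowered more in Th0 than on average in the other 4 cultures. Socs2 changed by -5.87 in Th0 on the log2 scale and by -2.23 in Th1, -4.01 in Th2, -4.63 in Th17 and -2.69 in iTreg, which put the Th0 effect 2.48 ± 0.36 SE below their mean (adjusted p = 0.0044). Socs1 changed by -2.78 in Th0, with 0.55 in Th1, 0.02 in Th2, -0.72 in Th17 and -1.25 in iTreg (difference -2.43, adjusted p = 0.007). Cish and Lif differed in the same direction, by -1.33 (adjusted p = 0.017) and -2.07 (adjusted p = 0.02). Lif was far lower in S5KO in iTreg too, at 16.7 and 11.6 CPM in S5KO against 244 and 105 CPM in WT. Il2rb, which passed in Th0, changed by 0.47, -0.44, -0.18 and 0.04 in Th1, Th2, Th17 and iTreg and passed in none of them (difference -1.07, adjusted p = 0.033). Il2ra was lower in S5KO in Th0 and in iTreg (-1.58 and -1.72) and close to 0 in Th1 and Th17 (0.17 and 0.03), but its difference did not pass (-1.10 ± 0.29 SE, adjusted p = 0.086, and 0.027 with the replicate block). Of these calls, that of Socs1 was lost without S5KO replicate 1 (adjusted p = 0.09), Cish without S5KO replicate 1 or WT replicate 2 (0.11 and 0.092), Lif without any but WT replicate 1 (up to 0.14) and Il2rb in all 4 fits (0.078 to 0.16).

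Several genes were far lower in S5KO in Th0 and little changed in at least 1 polarised culture. Il10ra had 1.23 and 1.71 CPM in S5KO Th0 cells, against 25.4 and 24.4 CPM in WT Th0 cells, but 79.8 and 79.0 CPM in S5KO Th1 cells, against 60.2 and 51.4 CPM in WT Th1 cells (difference -2.54 ± 0.35 SE, adjusted p = 0.0032). In Th17 Il10ra was also far lower in S5KO, at 3.24 and 2.63 CPM in S5KO against 41.3 and 29.3 CPM in WT. Il12rb2 had 686 and 719 CPM in S5KO Th1 cells, against 302 and 527 CPM in WT Th1 cells, with log2 fold changes of 0.76 in Th1, -0.09 in Th2, 0.18 in Th17 and -1.53 in iTreg (difference -3.30, adjusted p = 0.016). Tgm2 fell in Th0 and in iTreg (-4.65 and -5.87) and had 1172 and 1470 CPM in S5KO Th2 cells, against 1170 and 1542 CPM in WT Th2 cells (difference -2.90, adjusted p = 0.007). Batf3 changed by -0.56 in Th1 and by -4.35, -3.74 and -5.62 in Th2, Th17 and iTreg (difference -2.91, adjusted p = 0.017). Lama5, Lrrc32, Egln3 and Treml2 had negative fold changes in all 5 cultures and differed in size (differences -3.47, -3.95, -2.49 and -1.86). Lama5 was called in each of them, and the other 3 missed in 1 culture each, Lrrc32 in Th17, Egln3 in Th2 and Treml2 in Th1. The differences of Il12rb2 and Batf3 did not pass without S5KO replicate 1 (adjusted p = 0.14 each) or WT replicate 2 (0.056 and 0.054), Batf3's also not without S5KO replicate 2 (0.06), that of Tgm2 without S5KO replicate 1 (0.09), and Lama5, Lrrc32, Egln3 and Treml2 each missed in 1 or 2 fits (0.064 to 0.13).

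In the other direction, Mxd4, a MAX partner that opposes MYC, had 55.9 and 48.3 CPM in S5KO Th0 cells, against 8.99 and 7.08 CPM in WT Th0 cells, and changed by 0.07 in Th1, -1.23 in Th2, -0.11 in Th17 and 2.29 in iTreg (difference 2.44 ± 0.35 SE, adjusted p = 0.004). Adssl1, an enzyme of adenine nucleotide synthesis, rose in Th0 (log2 fold change 1.84) and fell in Th1 (-2.06) and iTreg (-1.44), a difference of 2.79 ± 0.39 SE (adjusted p = 0.0035). The mitotic kinase Nek6 went the opposite way, -2.49 in Th0 and 1.20 in Th1 and 1.77 in Th17, both called (difference -2.67 ± 0.34 SE, adjusted p = 0.0032). Both genes were thus called with opposite signs in different cultures. Cst3 rose in Th0 (3.31) and Th2 (2.24) and changed by 0.51, -0.21 and 0.24 in Th1, Th17 and iTreg (difference 2.62, adjusted p = 0.007). Sox4 stood higher in S5KO in iTreg too, at 349 and 307 CPM in S5KO against 11 and 12.4 CPM in WT. So did Gcnt1, at 33.6 and 41.4 CPM in S5KO iTreg cells against 0.414 and 1.4 CPM in WT. Hdac9 stood higher in S5KO in Th17 too, at 15.7 and 17 CPM in S5KO against 1.78 and 1.96 CPM in WT. In iTreg Hdac9 had 7.15 and 5.48 CPM in S5KO, against 0.363 and 0.797 CPM in WT. It was also higher in S5KO in Th1, and the genotypes overlapped in Th2. Nkg7 stood higher in S5KO in each polarised culture, in iTreg at 106 and 77.9 CPM in S5KO against 43.9 and 34 CPM in WT. Eomes changed by 2.26 in Th0 and by -1.54 in Th17 (not called) and -1.41 in iTreg (called, difference 3.03, adjusted p = 0.0079), Hdac9 differed by 2.95 (adjusted p = 0.019), Gcnt1 by 2.56 (0.047), Sox4 by 1.69 (0.007) and Nkg7 by 2.01 (0.01). Of these, Cst3 missed without WT replicate 1 (0.052), Sox4 without WT replicate 2 (0.098), Eomes without S5KO replicate 2 or WT replicate 1 (up to 0.064), Nkg7 without any but S5KO replicate 1 (up to 0.097), Gcnt1 without any but WT replicate 2 (up to 0.21) and Hdac9 in all 4 fits (0.069 to 0.13), and Adssl1's own call in Th0 was lost without WT replicate 2 (0.074).

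**Figure D4:**
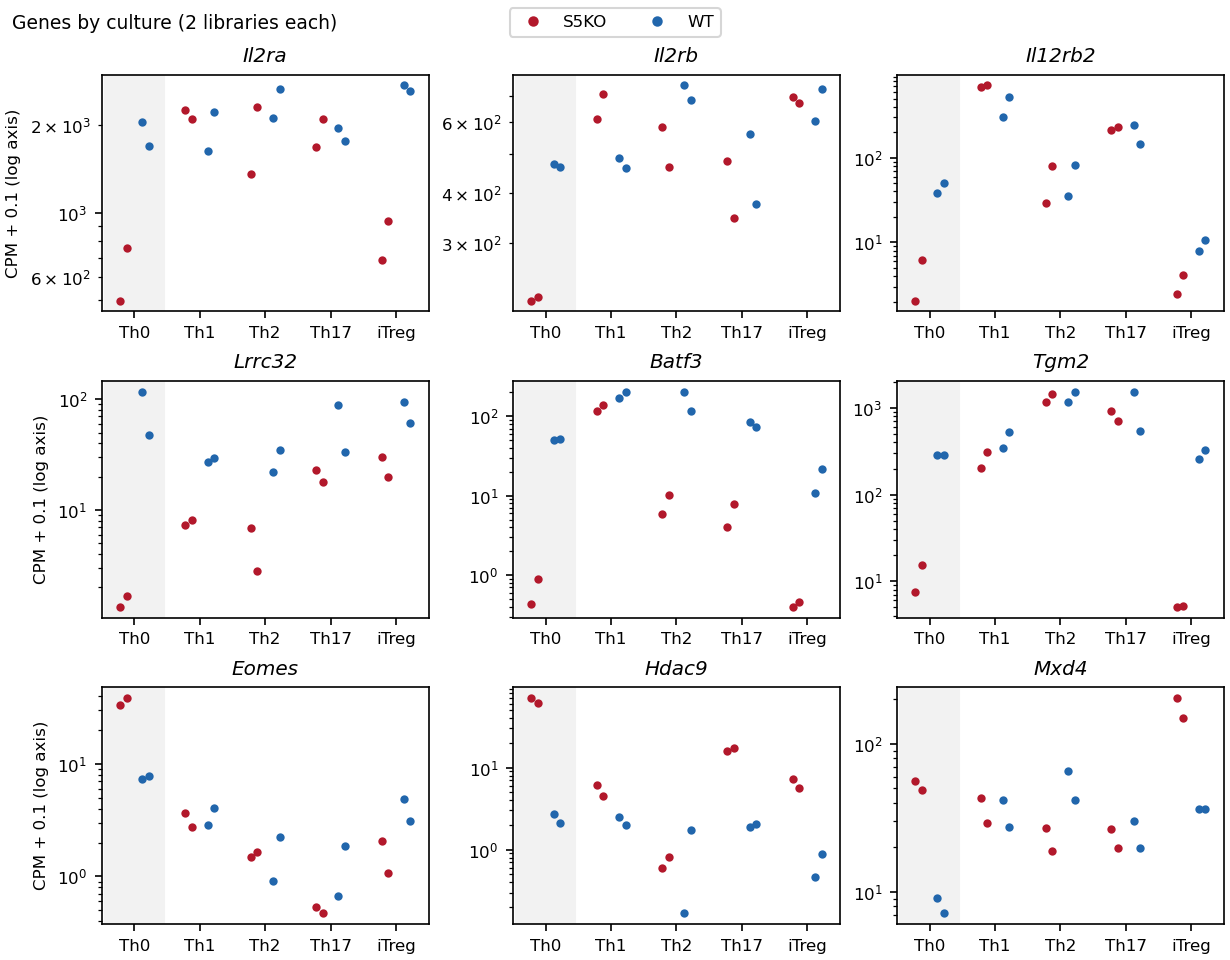
CPM + 0.1 on log axes for 9 genes in the 5 cultures, S5KO red and left of WT blue, 2 libraries each, with Th0 shaded. Il12rb2 separates by genotype in Th0 and overlaps in Th2 and Th17, Tgm2 separates in Th0, Th1 and iTreg and overlaps in Th2 and Th17, and Eomes and Mxd4 stand higher in S5KO than in WT in Th0.

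Libraries that share no sample with the Th0 comparison carried the same genotypes after a control retroviral vector and human IL-2, in 4-day culture, 6 S5KO and 6 WT libraries over 3 sets. Among them, 2 libraries of each genotype came from cells with 2 control vectors. There 32.2% of 14212 genes were called higher in S5KO and 33.4% lower. Of the 574 genes called higher in Th0 and tested there, 488 were called higher again (85% of these genes and 11% of those called higher with the vector), and 16 were called lower. Of the 401 called lower in Th0, 358 were called lower again (89.3% and 7.58%), and 5 were called higher. These shares stand against the high share of all genes called there. Socs2 ranged from 7.55 to 41.9 CPM with a median of 9.49 in S5KO vector cells, against 410 to 604 CPM with a median of 441 in WT vector cells. Il2ra ranged from 94.6 to 212 CPM (median 137) in S5KO, against 2303 to 2919 CPM (median 2631) in WT, a log2 fold change of -4.23 with vector and IL-2 beside -1.58 in Th0. Glycolysis genes were lower in 21 of 22 cases there, with a median of -2.89 beside -0.75 in Th0, and Pkm changed by -2.98 beside -0.94. The cultures differ in vector, IL-2 and duration, so these sizes are set side by side without a test. Cst3, whose log2 fold change in Th0 was 3.31 (2.34 without S5KO replicate 2), ranged from 54.0 to 141 CPM (median 87.8) in S5KO vector cells, against 72.6 to 150 CPM (median 102) in WT vector cells, and was called slightly lower (-0.37, adjusted p = 0.039).

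In cells with partial loss, cultured for 4 days and labelled as treated with IL-2, Stat5a-/- Stat5b+/- and Stat5a+/- Stat5b-/- libraries (2 each) were set against 2 WT libraries that both comparisons share. They called 57.6% and 57% of 12392 genes in either direction. Of all genes, 3615 were higher and 3517 lower in Stat5a-/- Stat5b+/- cells, and 3560 and 3509 in Stat5a+/- Stat5b-/- cells. The shares at the end of this paragraph stand against these high counts. Stat5a had 4.69 and 4.92 CPM in Stat5a-/- Stat5b+/- cells, 97.6 and 108 CPM in Stat5a+/- Stat5b-/- cells, and 198 and 194 CPM in WT cells. Stat5b had 54.0 and 57.1 CPM in Stat5a-/- Stat5b+/-, 28.7 and 31.2 CPM in Stat5a+/- Stat5b-/-, and 268 and 283 CPM in WT, so the Stat5b-null cells kept more transcript of their deleted gene than the Stat5a-null cells did. Lta had 15.6 and 22.4 CPM in Stat5a-/- Stat5b+/-, 16.8 and 23.0 CPM in Stat5a+/- Stat5b-/-, and 345 and 359 CPM in WT. Bcl2 had 59.2 and 56.4 CPM in Stat5a-/- Stat5b+/-, 46.6 and 39.6 CPM in Stat5a+/- Stat5b-/-, and 515 and 495 CPM in WT. Il2 had 138 and 133 CPM in Stat5a-/- Stat5b+/-, 104 and 97.1 CPM in Stat5a+/- Stat5b-/-, and 0.706 and 1.27 CPM in WT (log2 fold changes 7.09 and 6.66), and it was not called in Th0. Sox4, raised in Th0, had 2.58 and 1.25 CPM in Stat5a-/- Stat5b+/-, 5.93 and 5.96 CPM in Stat5a+/- Stat5b-/-, and 5.76 and 3.22 CPM in WT. Of 566 genes higher in Th0 and tested there, 264 (46.6%) were called higher in Stat5a-/- Stat5b+/- cells and 103 (18.2%) lower. For Stat5a+/- Stat5b-/- cells the counts were 263 (46.5%) higher and 92 (16.3%) lower. Of 397 genes lower in Th0, 336 (84.6%) and 333 (83.9%) were called lower in the 2 genotypes.

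**Figure D5:**
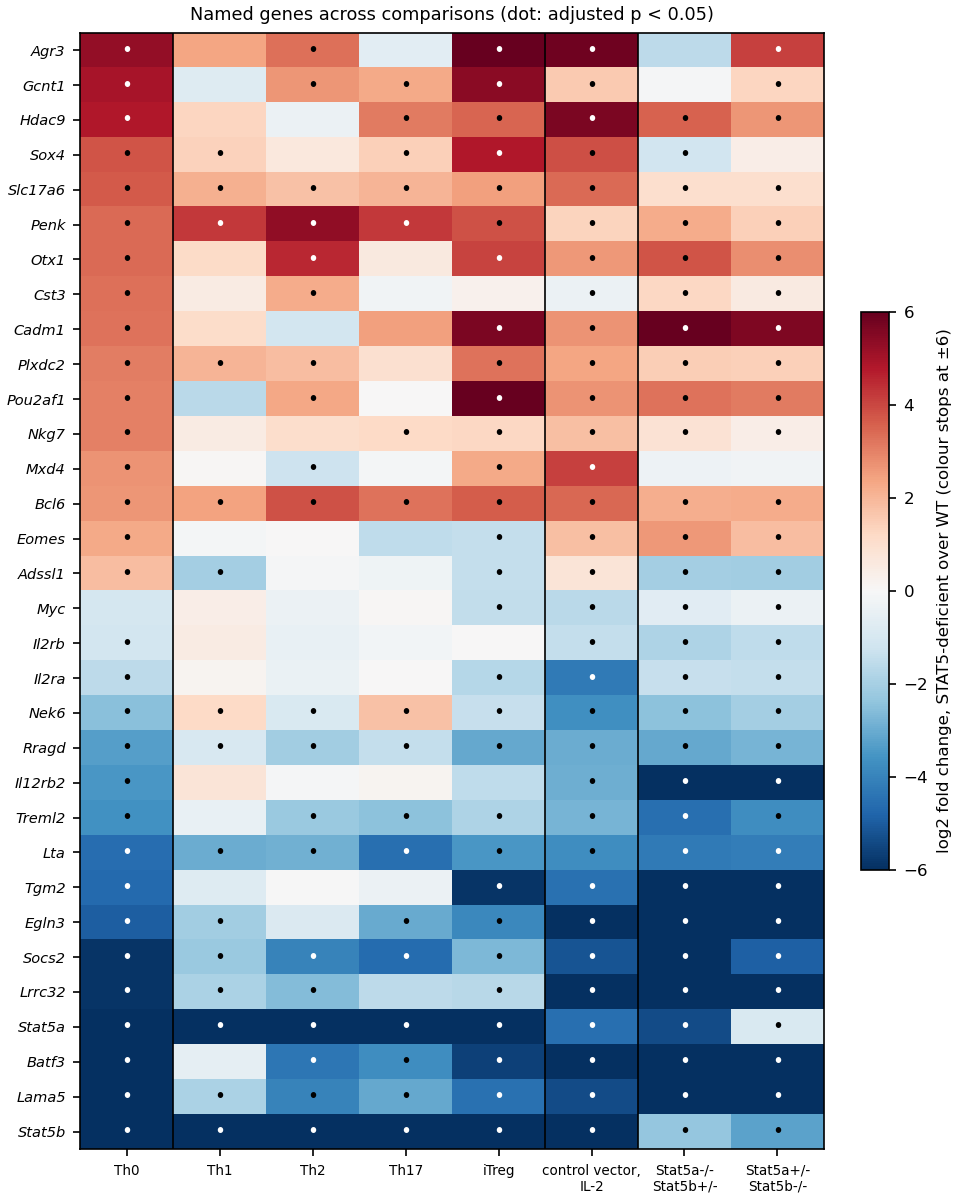
Log2 fold change of STAT5-deficient over WT cells for 32 named genes (rows, sorted by the Th0 value) in Th0, the 4 polarised cultures, control-vector cells with IL-2 and the 2 partial-loss genotypes (columns). Red is higher and blue lower in the deficient cells, the colour stops at 6 in either direction, and a dot marks an adjusted p below 0.05. Stat5b, Lama5, Stat5a, Socs2 and Lta carry a dot in every column, and Adssl1 and Nek6 change colour between cultures.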

How the data were processed

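Poly(A) RNA libraries (NEBNext Ultra, per the labels' protocols) were sequenced by the authors, and whole-number read counts per gene were deposited as tables of several libraries. The submitters' processing notes name TopHat2, Bowtie2 and HTSeq and the build mm9. Their versions, the annotation and the strand setting of counting are not given in the sources used here, so a gene and an overlapping or antisense partner cannot be told apart. The deposited counts of the 20 libraries of the 5 cultures were fitted together (R 4.3.3, edgeR 4.0.16, TMM scaling, filterByExpr, 1 mean per group, 10 residual degrees of freedom, common biological coefficient of variation 0.24), which left 15299 of 24282 genes. The test was the quasi-likelihood F-test with Benjamini-Hochberg adjustment over all genes tested, at 0.05. SE is the absolute log2 fold change divided by the square root of F. Left out were 27 rows whose symbols had become dates (at most 0.22% of the counts of a Th0 library) and 40 columns of samples that the text does not use. No 2 replicate libraries were identical.

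Control-vector libraries (12, with set as a term) and the partial-loss libraries (6) were fitted apart, so levels are compared within a table only. Culture effects were compared as the Th0 effect minus the mean effect of the other 4 cultures. RefSeq windows (GRCm38.p6) were searched by symbol, and no coordinate was moved between builds. In 1 Th1 library of each genotype the cell type label reads Th2 while title and treatment read Th1, and the title was followed. Same-numbered libraries deviated together, with correlations of 0.107 to 0.746 in 45 of 45 pairs of groups (0.38 between the Th0 groups), so the numbers pair the libraries. The main fit left this pairing out, and the replicate block took it up. Alternatives were size-factor scaling, DESeq2 1.42.0, 2 other filters, the 4 Th0 libraries alone, the replicate block, and each Th0 library left out. The Th0 and control-vector fits were also run on simulated counts. Those counts were drawn independently for each library, so that run cannot check how the pairing affects the calls. Leaving out the shallowest library and the 2 Th1 libraries above were added after seeing the data. Members and gene lists were chosen with earlier results of these data known. Genes named are those with the largest changes without overlap and a mean log2(CPM + 1) of at least 3 (up to 12 in each direction, and up to 6 for the difference between cultures), up to 5 called members of each list, any member of the STAT, receptor, target, cytokine and lineage lists, and a few fixed genes of the pathway. CPM is the count scaled to a common library size after TMM normalisation, and no count was normalised for length. A few genes of these lists are not reported here.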

Additional observations from a re-analysis of the deposited data

Results flagged for a closer look

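The effect of STAT5 loss differed by test between Th0 and the mean of the other 4 cultures in 31 of the genes named above, on the log2 scale and relative to 0.516% of all genes in each direction. More negative in Th0 were Lrrc32 (-3.95), Lama5 (-3.47), Il12rb2 (-3.30), Batf3 (-2.91), Tgm2 (-2.90), Nek6 (-2.67), Il10ra (-2.54), Egln3 (-2.49), Socs2 (-2.48), Socs1 (-2.43), Id2 (-2.24), Lif (-2.07), Themis (-1.91), Treml2 (-1.86), Slfn1 (-1.58), Ifi47 (-1.37), Cish (-1.33), Il2rb (-1.07) and Ccnd2 (-0.94). More positive in Th0 were Eomes (3.03), Hdac9 (2.95), Adssl1 (2.79), Cst3 (2.62), Gcnt1 (2.56), Cd68 (2.52), Mxd4 (2.44), H2-Eb1 (2.16), Nkg7 (2.01), Sox4 (1.69), Ccr7 (1.63) and Ccr8 (1.55). The differences of Ccnd2 and H2-Eb1 were lost in all 4 fits without 1 Th0 library, those of Ccr7, Ccr8 and Cd68 in any but that without S5KO replicate 1, and that of Themis without S5KO replicate 2 or WT replicate 1. Id2, an inhibitor of E protein factors, fell in Th0 by 0.91 and rose in Th1, Th17 and iTreg by 1.74, 1.05 and 2.68.

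Among 8 groups of 6 control-vector libraries, 1 library stood far from the others. It was an S5KO library that carried 2 control vectors (replicate 1), with 41.9 CPM of Socs2, where the nearest S5KO library had 16.4 CPM. Chance flags about 1 in 20 such groups.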

How the results depend on the processing

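Scaling by size factors, both other filters, DESeq2, the replicate block and the added leave-outs kept the sign of each gene they tested, among 146 with a Th0 test and 32 with a tested difference between cultures. The filter of at least 1 CPM in 2 Th0 libraries tested 142 of the 146, with 124 of the 125 calls. Of 125 named Th0 calls, 2 were lost under size-factor scaling (Csf1, adjusted p = 0.053, and Gbp10, 0.059), 0 under DESeq2 or the replicate block, 1 with no filter beyond 1 count (Satb1, 0.067) and 7 without the 2 Th1 libraries of unclear label. With only the 4 Th0 libraries, which leave 2 residual degrees of freedom, 16 were lost. DESeq2 put lower calls in Th0 at 748. The block lost no named call, and the calls and list counts that it gained or moved by over 1.5 times stand beside the results. DESeq2 moved further list counts by over 1.5 times, to 9 cholesterol, 4 ribosome biogenesis, 3 serine and one-carbon, 2 nucleotide synthesis, 1 respiratory chain, 2 ATF4 response, 5 ER chaperone, 8 DNA replication and 5 TNF superfamily genes lower, and to 2 feedback and target, 1 G1 and 8 TNF superfamily genes higher. Size-factor scaling gave 2 serine and one-carbon, 1 respiratory chain and 5 DNA replication genes lower, and 0 helper cytokines higher. For the difference between cultures, the counts more positive and more negative were 333 and 327 by DESeq2, 169 and 159 with no filter beyond 1 count, 168 and 138 with the replicate block, 163 and 119 without WT Th2 replicate 2 (the shallowest library), and 136 more positive with at least 1 CPM in 2 Th0 libraries. The difference of Gcnt1 was lost under size-factor scaling (0.057), without WT Th2 replicate 2 (0.056) and without the 2 Th1 libraries (0.081), and that of Hdac9 without WT Th2 replicate 2 (0.078). The causes were not tested. Leaving out 1 Th0 library in turn gave 194 to 371 higher and 210 to 273 lower calls, and 13 to 51 and 21 to 48 for the difference, and leaving out WT Th2 replicate 2 gave 689 and 451 in Th0. Genes that had not been called changed sign among the fits without 1 library, with ranges of -0.17 to 0.07 for Akt1, -0.53 to 0.13 for Jak3, -0.41 to 0.04 for Tnfrsf4, -0.49 to 0.25 for Tnfrsf18, -0.10 to 0.31 for Capg, -0.15 to 1.16 for Il21, -0.72 to 6.26 for Ifng, -1.14 to 0.21 for Tbx21 and -1.19 to 0.11 for Cd8a. With 2 libraries a group, genes of low count and changes of small size are the least certain, and a missed threshold does not show that a gene is unchanged.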

Other observations

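Genes that changed the same way in all 5 cultures had not been described as a group, and those named here were picked after their values were seen. Of the 583 genes higher and 410 lower in Th0, 25 were called higher and 28 lower in each of the 5 cultures. Among the higher were Penk, with log2 fold changes of 3.42, 4.23, 5.32, 4.26 and 3.82 in Th0, Th1, Th2, Th17 and iTreg, Bcl6, with 2.67, 2.43, 3.80, 3.24 and 3.61, and Casp1, the inflammatory caspase, with 2.07, 2.79, 2.62, 2.99 and 6.60 in the same order. These 3 kept their Th0 calls without any 1 Th0 library, Casp1 at 2.73 without WT replicate 2. Of the genes called in Th0, 105 higher and 39 lower were called in none of the other 4 cultures, which does not show that they differ there.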
